A study of Rattus norvegicus with 325 samples.

Results

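The soleus of middle-aged rats was compared with that of young adult rats in 24 RNA-seq libraries, 12 from animals of 18 months and 12 from animals of 6 months. Members were taken by the muscle and the age in their labels, and they are 24 of the 325 libraries of the series. The rats were males of the outbred Sprague Dawley strain, with no engineered allele and no treatment, and the 4 muscles of the series were sampled at 7 ages from 6 to 27 months. The animals came from a commercial supplier and were housed at 1 site before collection. Each age was collected on a single day, between the morning and the early afternoon, so an effect of age and one of the collection day cannot be told apart. The study counts its groups in animals, but the labels do not say which animal gave which library.

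The soleus is a postural muscle of the calf, built mainly of slow, oxidative fibres that contract for long periods. Its collagen-rich matrix is made by fibroblasts and tenocytes and is laid down most actively during growth. Motor axons contact each fibre at 1 synapse, where acetylcholine receptor subunits are transcribed by the nuclei under the nerve ending, and after loss of the nerve the whole fibre makes them. Clock genes run a daily rhythm in muscle as in other tissues, with the activators Arntl and Clock in opposite phase to the output gene Dbp.

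The labelled muscle matched its markers. On the log2 CPM scale (CPM, counts scaled to a common library size, here over 3 muscles, with a prior count of 0.5), the slow myosin Myh7 lay between 15.41 and 16.05 in the 24 soleus libraries and between 10.53 and 12.08 in those of the tibialis anterior at the same ages. The fast myosin Myh4 went the other way, with 2.19 to 6.10 in the soleus against 16.08 to 16.63 in the tibialis anterior. Total counts were 24.4 to 39.2 M (mega-reads) at 6 months and 17.6 to 43.4 M at 18 months (permutation test, 100000 resamples, two-sided p = 0.521). The 10 most abundant genes took a larger share of the counts at 18 months, with a median of 20.5% against 19.9% (p = 0.00398), and so did ribosomal RNA genes, at 0.324% against 0.257% (p = 0.0124). The first component of the 24 libraries, with 25.4% of their variance, separated every 18 month library from every 6 month library. Replicates 6, 7 and 8 of 18 months stood at its far end, and replicate 2 of 18 months and replicate 4 of 6 months at the end of the second component, so the counts of called genes and the list calls that changed are also given without these 5 libraries. The counts shared with other spans or muscles, those at any fold and those without overlap are given with all libraries only.

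Of 12175 genes tested with limma-voom, 346 (2.84%) were called, meaning a Benjamini-Hochberg adjusted p under 0.05 together with a change over 1.5-fold. The calls split into 202 higher (1.66%) and 144 lower (1.18%) at 18 months. At any fold, 3174 genes (26.1%) passed the adjusted p. Most calls were small: 93 of the higher and 38 of the lower genes exceeded 2-fold, and the median absolute log2 change of the called genes was 0.85. In 31 called genes, 19 higher and 12 lower, no 18 month library overlapped the 6 month libraries, while 199 (1.63%) of all genes tested showed no overlap. Without the 5 libraries, 141 genes were called higher and 114 lower, of which 124 and 93 were called in the same direction with all libraries.

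**Figure D1:**
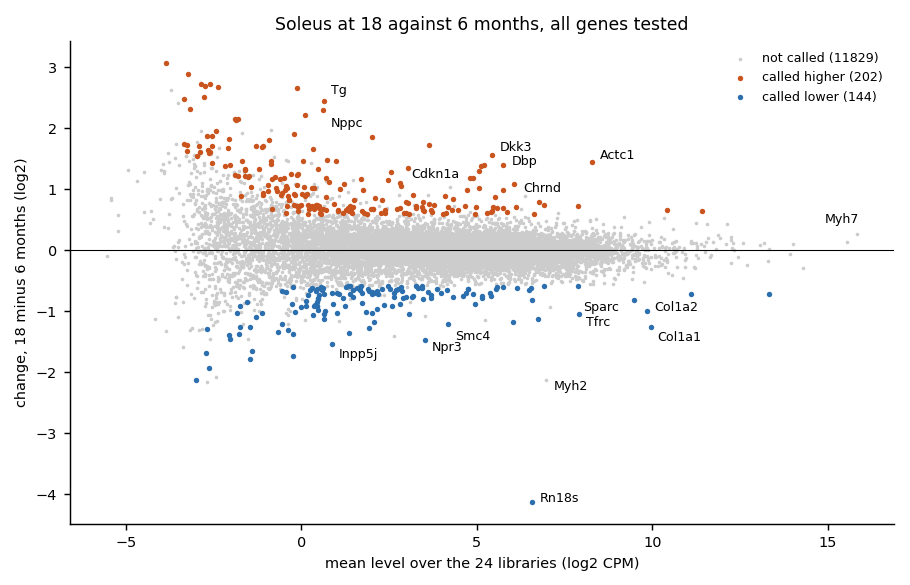
Change from 6 to 18 months (y axis, log2) against the mean level over the 24 soleus libraries (x axis, log2 CPM) for each of the 12175 genes tested, with the 202 genes called higher and the 144 called lower in colour. The 16 called rises of over 4-fold all lie below a mean level of 1, whereas the collagen genes Col1a1 and Col1a2 fell at levels near 10.

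Several fibrillar collagens and other connective tissue genes fell. Col1a1, the alpha 1 chain of type I collagen and the main protein of tendon and muscle fascia, had a lowest, median and highest level of 9.43, 10.55 and 11.21 log2 CPM at 6 months and of 8.72, 9.30 and 9.70 at 18 months. A single library of 6 months reached down into the range of 18 months. The change was −1.26 on the log2 scale (SE 0.17, adjusted p = 5.51e-08), to 0.42 times the 6 month level. Its partner chain Col1a2 fell by 1.00 (SE 0.15, adjusted p = 4.06e-07). Col11a1, a minor chain that nucleates thin collagen fibrils, ran from 5.73 to 7.24 at 6 months and from 4.92 to 5.70 at 18 months. These ranges did not touch, and Col11a1 fell by 1.18 (SE 0.13, adjusted p = 3.31e-10).

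Of the 15 collagen genes tested, 4 were called lower and 0 higher, with Col5a2 (−0.59, SE 0.12) as the fourth, and all 15 had a negative estimate. The median change of the list was −0.36 against 0.02 for all genes tested. Col5a2 was not called without the 5 libraries, which left 3 collagen calls. Among 34 matrix and remodelling genes, 3 were called lower and 0 higher. Fbn2, a fibrillin of elastic microfibrils, fell by 1.18 (SE 0.19, adjusted p = 1.98e-06), and Postn, a matricellular protein of growing and injured tissue, fell by 1.13 (SE 0.28, adjusted p = 0.00112). Sparc, which binds collagen outside the cell, fell by 0.82 (SE 0.10, adjusted p = 2.52e-09), from a median of 9.88 to one of 9.02. Mmp16, a membrane-bound matrix metalloproteinase outside that list, fell by 1.35 (SE 0.18, adjusted p = 2.15e-08), and its libraries of 18 months, at −0.11 to 1.08, lay below those of 6 months, at 1.44 to 2.87.

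Of 9 tendon markers tested, 3 fell and 0 rose: Kera (keratocan, −0.82, SE 0.17), Cilp2 (a cartilage and tendon matrix protein, −0.75, SE 0.16) and Tnmd (tenomodulin, −0.71, SE 0.14). The summed level of the tendon list ranged from 787 to 2334 CPM at 6 months and from 1158 to 1773 CPM at 18 months, so the ranges overlapped, and the part of dissected tendon in the fall of the collagens was not tested. The 8 fibro-adipogenic markers gave 0 calls in either direction and a median change of 0.02. In bulk muscle, fewer cells of a type and less RNA per cell cannot be told apart.

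The ligand and a receptor of the C-type natriuretic peptide pathway went in opposite directions. Npr3, the clearance receptor that removes natriuretic peptides, had a lowest, median and highest level of 3.68, 4.32 and 4.77 at 6 months and of 1.68, 2.72 and 3.71 at 18 months. Only the highest library of 18 months reached the lowest of 6 months. Npr3 fell by 1.48 (SE 0.19, adjusted p = 4.88e-09), to 0.36 times. Nppc, the precursor of C-type natriuretic peptide, was at −1.46, −0.71 and 1.35 at 6 months and at 0.62, 1.91 and 2.42 at 18 months. Here 2 libraries of 6 months lay inside the range of 18 months. Nppc rose by 2.29 (SE 0.47, adjusted p = 9.58e-05), a 4.89-fold change that rests on 312 counts in the young group and 1255 in the older one.

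Further falls came from genes of unlike function. Inpp5j, a phosphatase of inositol phospholipids, had a lowest, median and highest level of 0.99, 1.56 and 2.57 at 6 months and of −1.31, 0.19 and 0.59 at 18 months. The groups did not overlap, and the change was −1.53 (SE 0.25, adjusted p = 1.92e-06). Tfrc, the transferrin receptor that takes up iron, ran from 8.09 to 8.69 at 6 months and from 7.02 to 7.66 at 18 months. It fell by 1.04 (SE 0.12, adjusted p = 2.87e-10) with no overlap, and was the 1 gene called lower among 19 iron and antioxidant genes, where 0 were called higher. Atp6v0a4, a subunit of the vacuolar proton pump, fell by 1.28 (SE 0.21, adjusted p = 1.68e-06). Nell2, a secreted protein of the nervous system, and Slitrk2, a neuronal membrane protein, fell by 1.07 (SE 0.25) and 1.13 (SE 0.25). St3gal2, a sialyltransferase, fell by 0.63 (SE 0.08, adjusted p = 4.1e-09), from a median of 5.85 to one of 5.20. Bdh1, which oxidises the ketone body hydroxybutyrate, was the single call among 34 fatty acid and ketone genes, at −0.64 (SE 0.18, adjusted p = 0.00407), and it was not called by edgeR (−0.59), by DESeq2 (−0.59) or without replicate 10 of 18 months (−0.58).

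**Figure D2:**
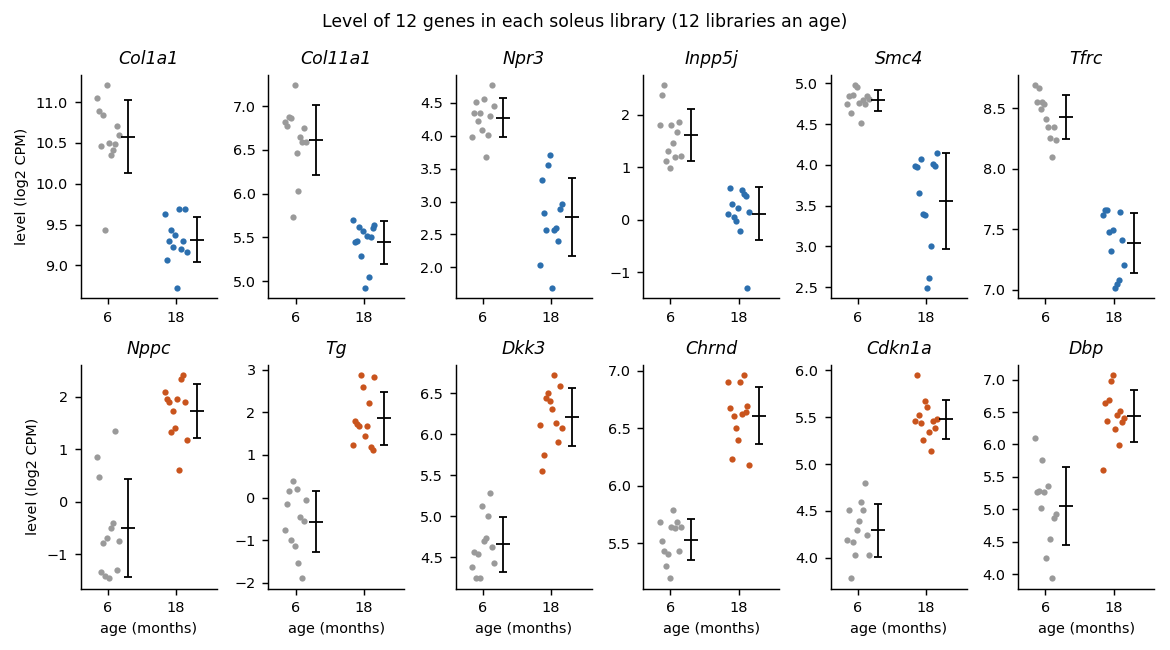
Level (y axis, log2 CPM) of 12 genes in each of the 12 libraries of 6 months and the 12 of 18 months (x axis, age), each point a library, with the mean and SD of the group beside it. The upper row fell, with no overlap for Col11a1, Inpp5j, Smc4 and Tfrc, and the lower row rose, with no overlap for Tg, Dkk3, Chrnd and Cdkn1a.

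The rises named by size or by p included genes of unlike function. Tg, the precursor of thyroid hormone in the thyroid gland, stood at −1.89, −0.50 and 0.39 (lowest, median, highest) at 6 months and at 1.11, 1.70 and 2.88 at 18 months. No library of 18 months was as low as any of 6 months, and Tg rose by 2.44 (SE 0.44, adjusted p = 1.11e-05), from 282 to 1462 counts. Stmn2, a tubulin-binding protein of neurons, rose by 1.65 (SE 0.23, adjusted p = 5.94e-08), and Hook1, an adaptor for transport along microtubules, by 1.45 (SE 0.23, adjusted p = 9.26e-07), both with no overlap. Fxyd6, a regulator of the sodium pump, ran from 4.00 to 4.88 at 6 months and from 5.35 to 6.40 at 18 months. Its rise of 1.40 (SE 0.16, adjusted p = 5.86e-10) took all 18 month libraries above all 6 month libraries. Tmem196, a membrane protein, rose by 1.10 (SE 0.13, adjusted p = 1.72e-09), and St5, a guanine nucleotide exchange factor, by 0.65 (SE 0.08, adjusted p = 8.81e-09), again without overlap. Ttyh1, a membrane protein of neural tissue, rose by 1.46 (SE 0.26).

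Dkk3, a secreted protein of the Dickkopf family, was more abundant. It stood at 4.24, 4.59 and 5.28 at 6 months and at 5.55, 6.23 and 6.73 at 18 months. The ranges were apart, and Dkk3 rose by 1.56 (SE 0.20, adjusted p = 8.81e-09). Genes outside the naming rule, picked after their values were seen, included its relative Dkk2, an antagonist of Wnt signalling (1.30, SE 0.23), the pacemaker channel Hcn4 (1.38, SE 0.24), and the potassium channel subunits Kcnj3 (1.35, SE 0.23), Kcnd3 (1.05, SE 0.16) and Kcnh1 (1.18, SE 0.30). All 5 were called higher, and Dkk2, Hcn4 and Kcnd3 had no overlap.

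Genes of liver metabolism came with a large spread between libraries. Hpd, an enzyme of tyrosine breakdown, rose by 1.72 (SE 0.37, adjusted p = 0.000221), with 0.92 to 4.71 at 6 months and 2.15 to 5.52 at 18 months. Gsta2, a glutathione transferase, rose by 2.21 (SE 0.58, adjusted p = 0.00257), but 3 libraries of 6 months held it at about −6 while the other 9 ran from 0.03 to 1.60, inside or just under the range of 18 months, 0.32 to 2.12. Gsta2 was not called by edgeR (0.88) or DESeq2 (0.87). None of 13 liver transcripts tested was called, although all 13 had a positive estimate and their median change was 0.88. The summed level of that list ran from 11.6 to 2170 CPM at 6 months and from 8.23 to 2297 CPM at 18 months, and its part in the 2 rises was not tested.

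Synaptic genes divided. Chrnd, the delta subunit of the acetylcholine receptor, had 5.20, 5.58 and 5.79 at 6 months and 6.18, 6.63 and 6.96 at 18 months. The libraries of the 2 ages were apart, and Chrnd rose by 1.08 (SE 0.11, adjusted p = 1.91e-11), to 2.11 times. It was the only call among 18 genes of denervation and the synapse, where the median change was 0.16. The alpha subunit Chrna1 had a change of −0.01 (SE 0.27, adjusted p = 0.987), and the gamma subunit Chrng, of immature and denervated muscle, 0.79 (SE 0.44, adjusted p = 0.185). All 12 libraries of 18 months lay above the 6 month mean of Chrng, and it was called in 3 of 39 alternative settings. Musk (0.09, SE 0.21), the receptor kinase that organises the synapse, Ncam1 (0.19, SE 0.14) and Runx1 (0.17, SE 0.29) were not called, nor was the denervation-responsive deacetylase Hdac4 (0.44, SE 0.20, adjusted p = 0.103). Chrnb1, the beta subunit, passed the adjusted p under the fold threshold (0.29, SE 0.08, adjusted p = 0.00371). With the share of the 10 most abundant genes as a covariate, 3 genes of the list were called: Chrnd, Chrng and Gadd45a.

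The atrophy list gave 0 calls in 13 genes. Its ubiquitin ligases Trim63 and Fbxo32 had changes of 0.11 (SE 0.10, adjusted p = 0.468) and 0.23 (SE 0.08, adjusted p = 0.0304). Mstn (myostatin) was called lower in the fit without the 5 libraries. The metallothioneins Mt1a (0.23, SE 0.56) and Mt2A (0.65, SE 0.57) and the nuclear receptor Esrra (0.18, SE 0.08, adjusted p = 0.102) were not called.

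Slow fibre genes had small positive estimates below the fold threshold. Of 13 tested, 0 were called, 10 had a positive estimate, and 7 passed the adjusted p in the higher direction, where 13.1% of all genes did. The 7 included Myh7 (0.27, SE 0.09, adjusted p = 0.0143), the regulatory light chain Myl2 (0.53, SE 0.10) and the slow troponins Tnnt1 (0.42, SE 0.07) and Tnnc1 (0.45, SE 0.10). The summed level of the list was 75661 to 92683 CPM at 6 months and 91568 to 111380 CPM at 18 months, a narrow overlap. With the covariate for the 10 most abundant genes, a measure that contains Myh7, the median of the list went from 0.18 to 0.11, and without the 5 libraries it was 0.15. The 15 fast fibre genes gave 0 calls. Myh2, the myosin of fast oxidative fibres, was split among the libraries of 6 months, with 6 at 10.11 to 11.33 and the other 6 at 3.79 to 6.53, while those of 18 months ran from 3.40 to 7.19. The libraries of 18 months thus lay near the lower set. Its change was −2.12 (SE 0.87, adjusted p = 0.0621) in limma-voom, which did not call it, whereas edgeR (−3.79) and DESeq2 (−3.79) did. Myh1 (0.21, SE 0.64) and Myh4 (1.03, SE 0.47, adjusted p = 0.102) were not called. With the covariate for the 10 most abundant genes, Myh4 was called higher, the 1 fast fibre call in that fit. Of 7 developmental sarcomere genes, 1 was called. Actc1, the cardiac actin that developing muscle also uses, had 6.35, 7.64 and 8.63 at 6 months and 8.13, 9.06 and 9.79 at 18 months. The ranges overlapped in part, and Actc1 rose by 1.44 (SE 0.22, adjusted p = 3.75e-07), whereas embryonic myosin Myh3 had −0.11 (SE 0.28).

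Cell cycle genes were counted in 2 lists. Cdkn1a, the p53 target that encodes the cell cycle inhibitor p21, had 3.78, 4.27 and 4.80 at 6 months and 5.14, 5.46 and 5.95 at 18 months. Every library of 18 months exceeded every library of 6 months, and Cdkn1a rose by 1.18 (SE 0.33, adjusted p = 0.0047), the 1 call in 13 p53 and arrest genes. Of 25 proliferation genes, 4 were called lower and 0 higher: the mitotic kinesins Kif20a (−1.37, SE 0.47, adjusted p = 0.0219) and Kif11 (−1.34, SE 0.41, adjusted p = 0.0098), the centromere protein Cenpf (−0.94, SE 0.30, adjusted p = 0.0125), and Mki67 (−0.92, SE 0.27, adjusted p = 0.00787), the marker of dividing cells. Without the 5 libraries, 0 of the 25 were called, and the 4 estimates were −1.02, −1.03, −0.80 and −0.73. Hist1h1b, a linker histone of dividing cells, fell by 1.38 (SE 0.33).

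All 16 endothelial markers tested had a negative estimate, and 10 passed the adjusted p lower at any fold, where 13% of all genes did. Angpt2, a ligand of the endothelial receptor Tek that remodels vessels, was the 1 call (−0.65, SE 0.10, adjusted p = 1.43e-06). The receptor Kdr had −0.38 (SE 0.06). The summed level of the list was 1381 to 1564 CPM at 6 months and 1217 to 1392 CPM at 18 months. Satellite cell, smooth muscle and pericyte, Schwann cell and macrophage markers gave 0 calls in 14, 10, 11 and 16 genes.

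**Figure D3:**
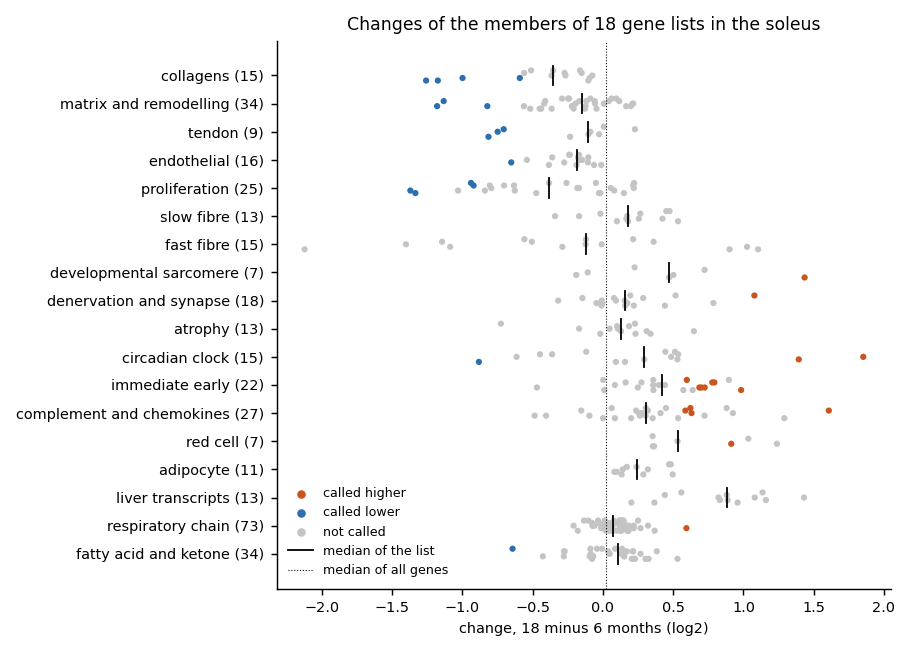
Change from 6 to 18 months (x axis, log2) of each tested member of 18 gene lists (y axis, with the number tested), each point a gene, the bar the median of the list and the dotted line the median of all genes. Collagens and endothelial genes lie wholly left of zero, and immediate early genes lie to the right with 1 exception.

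Clock genes were called in both directions. Dbp, a transcription factor at the output of the clock, stood at 3.94, 5.14 and 6.11 at 6 months and at 5.60, 6.44 and 7.07 at 18 months. The upper libraries of 6 months overlapped the lower ones of 18 months, and Dbp rose by 1.39 (SE 0.22, adjusted p = 8.67e-07). Ciart, a circadian repressor, went from −0.85, 1.10 and 3.22 to 0.55, 2.98 and 3.71, a rise of 1.85 (SE 0.41, adjusted p = 0.000277). Arntl, the activator that pairs with Clock, went from 5.01, 5.29 and 5.92 to 3.80, 4.44 and 5.27, and fell by 0.88 (SE 0.18, adjusted p = 0.000144). Thus 2 of 15 clock genes were called higher and 1 lower. Under the fold threshold, Per1 (0.53), Per2 (0.48), Per3 (0.54), Nr1d1 (0.51), Tef (0.44) and Bhlhe40 (0.29) passed the adjusted p higher and Clock (−0.45) lower. Per2 and Per3 were also called once the 5 libraries were left out. The spread was wide within the young group, where Ciart covered about 4 log2 units. The hour at which each animal was taken is not given in the labels.

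The promoters of the 3 called clock genes are shown because clock factors are known to act through short elements in such regions. RefSeq sequences of build GRCr8, 250 bases before to 50 after the start of the gene, were searched on both strands for the E-box CACGTG, bound by Arntl with Clock, and for AGGTCA, the core of elements bound by the Nr1d and Ror receptors, and matches are in capitals. Ciart, at chr2:186112197-186112496 on the minus strand, had 3 matches to CACGTG. Dbp, at chr1:105312006-105312305 on the plus strand, had none in this window. Arntl, listed as Bmal1 at chr1:176766078-176766377 on the plus strand, had 1 match to AGGTCA.
Ciart: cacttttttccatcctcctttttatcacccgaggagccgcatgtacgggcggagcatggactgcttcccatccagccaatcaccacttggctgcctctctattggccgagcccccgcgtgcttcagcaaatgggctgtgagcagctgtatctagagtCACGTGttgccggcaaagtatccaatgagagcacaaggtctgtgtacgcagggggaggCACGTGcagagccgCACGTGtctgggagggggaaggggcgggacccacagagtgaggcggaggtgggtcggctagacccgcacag
Dbp: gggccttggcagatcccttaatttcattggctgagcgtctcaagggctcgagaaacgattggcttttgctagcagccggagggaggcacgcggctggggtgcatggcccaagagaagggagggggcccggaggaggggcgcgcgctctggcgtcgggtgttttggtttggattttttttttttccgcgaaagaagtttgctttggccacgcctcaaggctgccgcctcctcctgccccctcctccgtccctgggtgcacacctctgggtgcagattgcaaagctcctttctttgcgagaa
Arntl: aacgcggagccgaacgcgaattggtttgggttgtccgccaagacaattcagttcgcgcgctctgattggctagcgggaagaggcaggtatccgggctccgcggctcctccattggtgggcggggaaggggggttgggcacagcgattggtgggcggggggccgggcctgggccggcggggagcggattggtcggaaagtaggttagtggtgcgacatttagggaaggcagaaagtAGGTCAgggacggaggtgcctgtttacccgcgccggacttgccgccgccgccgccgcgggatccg
Of 33469 promoters of this length, 6.4% held CACGTG and 16.2% held AGGTCA. Of the 14 tested clock genes with a promoter in the table, 3 held CACGTG, these being Ciart, Tef and Bhlhe40, and 2 held AGGTCA. Each clock gene was searched in its first listed promoter only, whereas the 33469 are all listed promoters, so the 2 are not like for like. A match describes the letters in this window and not binding.

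Immediate early genes, which respond quickly to stimulation, had more calls than any other of the 38 lists. Of 22 tested, 7 were called higher and 0 lower, 21 had a positive estimate, and the median change was 0.42. Fos rose by 0.98 (SE 0.35, adjusted p = 0.0282), with 4.24, 5.34 and 6.86 at 6 months against 5.60, 6.00 and 7.28 at 18 months. Nr4a1 (0.79, SE 0.28), Klf2 (0.78, SE 0.29), Junb (0.72, SE 0.19), Dusp1 (0.70, SE 0.18), Zfp36 (0.69, SE 0.15) and Ier3 (0.60, SE 0.15) completed the 7, against 1.66% of all genes called higher. In each of them the ages overlapped. From 6 to 9 months the changes were 1.03 for Fos, 1.02 for Nr4a1, 0.43 for Klf2 and 0.75 for Junb. They were 0.49 for Dusp1, 0.41 for Zfp36 and 0.45 for Ier3. Of these 7, only Junb passed the adjusted p over that step (adjusted p = 0.029). The mean of Junb was 5.03 at both 9 and 18 months. Nr4a1 was not called by edgeR (0.64) or DESeq2 (0.64), nor was Klf2 (0.72 in both). Without the 5 libraries 4 were called (Dusp1, Ier3, Junb and Zfp36), and with the covariate 2 (Junb and Zfp36). The summed level of the list at 6 months reached 1563 CPM in 1 library, above the highest of 18 months at 1525 CPM.

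Of 27 complement and chemokine genes, 4 were called higher and 0 lower, where 1.66% of all genes were called higher. The complement components C4a (0.63, SE 0.15, adjusted p = 0.000526), C4b (0.59, SE 0.15, adjusted p = 0.00228) and C6 (0.62, SE 0.19, adjusted p = 0.00835) lay near the fold threshold, and reads of C4a and C4b, near-identical copies, could be split between them. The chemokine Ccl5, also on the T cell list as its only call, rose by 1.61 (SE 0.54, adjusted p = 0.0192) from 40 to 86 counts in all. Without the 5 libraries, C4a and C6 were still called, and C4b and Ccl5 were not. C4b lost its call in 22 of 39 alternative settings, edgeR (0.57) and DESeq2 (0.57) among them, and Ccl5 lost it in edgeR (1.28). The interferon list had 1 call in 35 genes, Oasl (0.87, SE 0.28, adjusted p = 0.0134), lost without the 5 libraries, and the MHC class II list 0 in 8. Red cell genes were higher in all 7 estimates, with Slc4a1, the anion exchanger of red cells, as the call (0.91, SE 0.27, adjusted p = 0.00765), which was lost without the 5 libraries. The summed level of red cell genes ran from 162 to 331 CPM at 6 months and from 241 to 525 CPM at 18 months. All 11 adipocyte genes had a positive estimate with 0 calls, and Adipoq had 0.50 (SE 0.18, adjusted p = 0.0357).

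Genes of energy metabolism were read against 1.66% of all genes called higher and 1.18% lower. Of 73 respiratory chain genes, 1 was called higher, a share near that background, and 0 lower, Ndufb7 of complex I (0.59, SE 0.10, adjusted p = 5.01e-06), which was not called without the 5 libraries, and the median of the list was 0.07. The citric acid cycle (20 genes), glycolysis and glycogen (28), lipogenesis (23) and mitochondrial regulators (13) gave 0 calls. Without the 5 libraries, G0s2, an inhibitor of fat breakdown, and Slc16a3, a lactate exporter, were called lower. Heat shock (20), stress response and amino acid (17), glucocorticoid targets (15), growth hormone and Igf (17) and polyamine genes (11) also gave 0, and the B and plasma cell list had 1 gene tested and 0 calls. By contrast, Rn18s, the 18S ribosomal RNA that the library kit removes, had the largest fall of all genes (−4.12, SE 1.29, adjusted p = 0.0114), with 3 libraries of 18 months at −6.09 to −5.17, while the others of that age ran from 5.17 to 8.90. Rn18s was not called by edgeR (−1.07) or DESeq2 (−1.07), nor without the 5 libraries (−3.00). Lnc001 is a noncoding transcript that rose by 1.48 (SE 0.38).

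To see whether the same genes moved over a like span in other animals, the 12 soleus libraries of 21 months were compared with the 12 of 9 months, which share no library with the comparison of 18 with 6 months. In that later span 189 genes (1.55%) were called, 80 higher (0.657%) and 109 lower (0.895%), and 1209 (9.93%) passed the adjusted p at any fold. Of the 202 genes higher at 18 months, 32 were called higher there (15.8% of these genes and 40% of the 80), 2 were called lower, and 141 (69.8%) had a positive estimate, as did 47.4% of all genes. Of the 144 lower genes, 36 were called lower (25% of these genes and 33.0% of the 109), 0 were called higher, and 111 (77.1%) had a negative estimate, as did 52.6% of all genes. The median change of the 202 was 0.93 in the first span and 0.28 in the second, and that of the 144 was −0.77 and −0.28. The genes were selected for a change over 1.5-fold in the first span only, so these medians are not like for like.

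Some matrix genes were called in both spans and others were not. Col1a1 had −1.37 (SE 0.17, adjusted p = 1.62e-08) from 9 to 21 months, Col11a1 −1.03 (SE 0.13), Fbn2 −0.91 (SE 0.21), Cilp2 −1.34 (SE 0.17) and Tnmd −0.98 (SE 0.14). Postn had 0.07 there (SE 0.27, adjusted p = 0.913) and was above its 6 month level at 27 months by 0.70 (SE 0.27). Col5a2 had −0.13 (SE 0.12, adjusted p = 0.495), and the spans differed for it by −0.46 (adjusted p = 0.0411). Npr3 (−1.43, SE 0.20, adjusted p = 4.5e-07) and Nppc (1.77, SE 0.40, adjusted p = 0.00171) again went opposite ways. The fall of Npr3 lay early, with a mean of 4.27 at 6 months, 3.92 at 9 months, 2.79 at 12 months and 2.76 at 18 months. Tg (1.88, SE 0.35), Tmem196 (1.10, SE 0.13), Hook1 (1.86, SE 0.20) and Cdkn1a (1.73, SE 0.30, adjusted p = 4.42e-05) rose again. Cdkn1a went on to a mean of 9.05 at 27 months, from 5.48 at 18 months.

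Other genes had their change in the first span. A direct contrast of the 2 spans, (18 minus 6) minus (21 minus 9) months, which was added after the data were seen, called 279 genes (2.29%), 188 of them higher in the first span (1.54%) and 91 lower (0.747%). The 279 included 59 of the 202 higher and 31 of the 144 lower genes. The 202 and 144 were selected for the change from 6 to 18 months, which enters this contrast. These counts therefore cannot be set against the shares of all genes. Smc4, a subunit of the condensin that packs chromosomes, had the smallest p of the comparison of 18 with 6 months. It stood at 4.52, 4.80 and 4.98 at 6 months and at 2.49, 3.82 and 4.14 at 18 months. No library overlapped, and Smc4 fell by 1.22 (SE 0.12, adjusted p = 1.64e-12). Its lowest 3 libraries were replicates 6, 7 and 8, and without the 5 libraries the change was −0.93. The mean was 4.53 at 9 months, 4.46 at 12 months, 3.56 at 18 months, 4.31 at 21 months, 4.38 at 24 months and 3.95 at 27 months, and the spans differed by −0.99 (adjusted p = 1.86e-05).

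A like course was seen in genes picked for it after their values were seen. Xirp2, an actin-binding protein of the sarcomere, had a mean of 13.68 at 6 months, 12.96 at 18 months and 13.80 at 21 months, with the lowest levels again in replicates 6, 7 and 8. Trdn (triadin, of the calcium release unit) went from 11.47 to 10.75 and back to 11.43, and Esco1, a cohesin acetyltransferase, from 5.86 to 5.26 and 5.82. Sh3bgrl went from 6.81 to 6.16 and 6.79. From 6 to 18 months these genes also fell in the tibialis anterior and the diaphragm, with an adjusted p under 0.05 in each. In that order of muscles, Xirp2 had −0.88 and −0.75, Trdn −0.87 and −0.54, Esco1 −0.73 and −0.34, and Sh3bgrl −0.68 and −0.54. In the soleus the last 3 of these genes were again below 6 months at 27 months, at 10.68 for Trdn (27 minus 6 months −0.78, adjusted p = 5.1e-07), 5.50 for Esco1 (−0.38, adjusted p = 5.98e-05) and 6.41 for Sh3bgrl (−0.41, adjusted p = 5.15e-05), whereas Xirp2 was at 13.88. Rises with a higher level at 18 than at 21 months were Fxyd6 (5.90 and 5.31, difference of the spans 1.03, adjusted p = 0.000837), Actc1 (9.01 and 8.26, adjusted p = 0.000701), Dkk3 (6.21 and 5.66, adjusted p = 0.00212) and Ndufb7 (3.36 and 2.84, adjusted p = 0.000294). Of these, Ndufb7 was back near its 6 month level at 21 months (21 minus 6 months 0.08, adjusted p = 0.703). Fxyd6 (0.80, adjusted p = 0.000264), Actc1 (0.68, adjusted p = 0.0217) and Dkk3 (1.03, adjusted p = 0.000203) were still above it. Since 18 months is 1 collection day, as is 6 months, a property of either day cannot be told apart from the age.

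**Figure D4:**
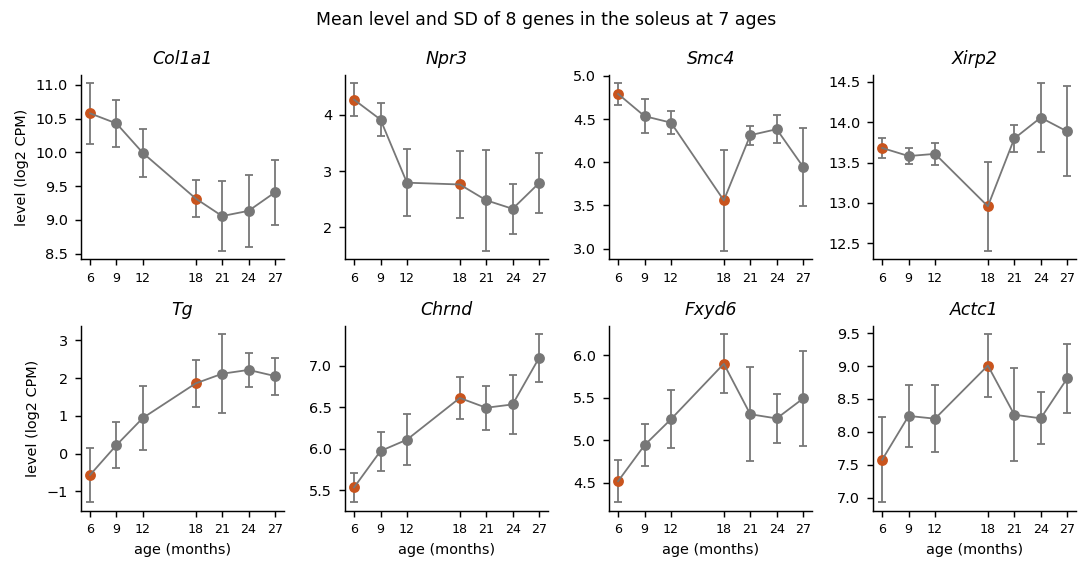
Mean level with SD (y axis, log2 CPM, 12 libraries an age) of 8 genes in the soleus at 7 ages (x axis, months), with 6 and 18 months in orange. Col1a1 and Npr3 stayed low after 18 months and Tg stayed high, whereas Smc4 and Xirp2 were lowest at 18 months, and Fxyd6 and Actc1 highest there.

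The same ages were compared in the tibialis anterior, a fast muscle of the shin, and in the diaphragm, the main breathing muscle, with 12 libraries an age each. These share no library with the soleus but were collected on the same days, possibly from the same animals. Of 12658 genes tested, 568 (4.49%) were called in the tibialis anterior and 296 (2.34%) in the diaphragm. In the tibialis anterior (higher 3.21%, lower 1.28%) 47 of the 202 higher genes and 37 of the 144 lower genes were called in the same direction, and in the diaphragm (1.75% and 0.585%) 51 and 29. Called in the same direction in all 3 muscles were 28 of the 202 higher and 19 of the 144 lower genes. The number to be met without a shared change was not computed. Among the genes called in all 3 muscles were Col1a1 (−0.68 in the tibialis anterior and −0.97 in the diaphragm), Npr3 (−1.18 and −0.98), Smc4 (−0.96 and −0.77), Tfrc (−1.57 and −1.16), Arntl (−0.80 and −0.99), Dbp (1.61 and 1.81), Ciart (1.88 and 3.01), Nppc (1.19 and 1.27), Chrnd (1.68 and 0.95), Junb (0.74 and 0.61), Hpd (2.38 and 1.01) and Ttyh1 (1.30 and 0.68).

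A difference between the muscles was tested as an interaction. The change of the soleus differed from that of the tibialis anterior in 118 genes (0.932%) and from that of the diaphragm in 57 (0.45%). Of the 346 genes called in the soleus, 17 differed from both muscles, 12 of them higher and 5 lower. The 346 were selected for the soleus change that enters both contrasts, so this count cannot be set against the shares of all genes. St3gal2 had 0.02 (SE 0.08) in the tibialis anterior and 0.01 (SE 0.08) in the diaphragm, and its fall in the soleus differed from them by −0.66 (adjusted p = 1.38e-05) and −0.66 (adjusted p = 4.66e-05). Inpp5j had −0.21 and −0.50 in these muscles, with differences of −1.33 (adjusted p = 0.000592) and −1.04 (adjusted p = 0.0215). Tg had 0.09 (SE 0.35) and 0.14 (SE 0.38), and differed by 2.34 (adjusted p = 0.000295) and 2.29 (adjusted p = 0.0012). Dkk3 had 0.07 and 0.61 and differed by 1.48 and 0.94. Of genes with few counts, the cell surface protein Cntn3 and the linker histone Hist1h1b also differed from both.

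Some genes differed from 1 of the muscles. Angpt2 had 0.02 (SE 0.10) in the tibialis anterior, a difference of −0.68 (adjusted p = 0.000645), and Postn had −0.04 there (difference −1.10, adjusted p = 0.0443). Stmn2 and Hook1 rose by more in the soleus than in the tibialis anterior, by 1.25 (adjusted p = 0.000645) and 1.27 (adjusted p = 0.00445). Tmem196 had 0.15 in the diaphragm (difference 0.95, adjusted p = 0.000729), and Cdk6, a kinase of the cell cycle, rose by 0.61 (SE 0.10) in the soleus against −0.10 there (difference 0.70, adjusted p = 0.000396). By contrast, the tibialis anterior had the larger change of 2 denervation genes, where Runx1 had 2.05 (SE 0.29) and Chrna1 1.51 (SE 0.31). The soleus changes differed from these by −1.89 (adjusted p = 0.000692) and −1.53 (adjusted p = 0.0116), while Chrnd, which rose in both, had no detected difference (−0.61, adjusted p = 0.247).

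**Figure D5:**
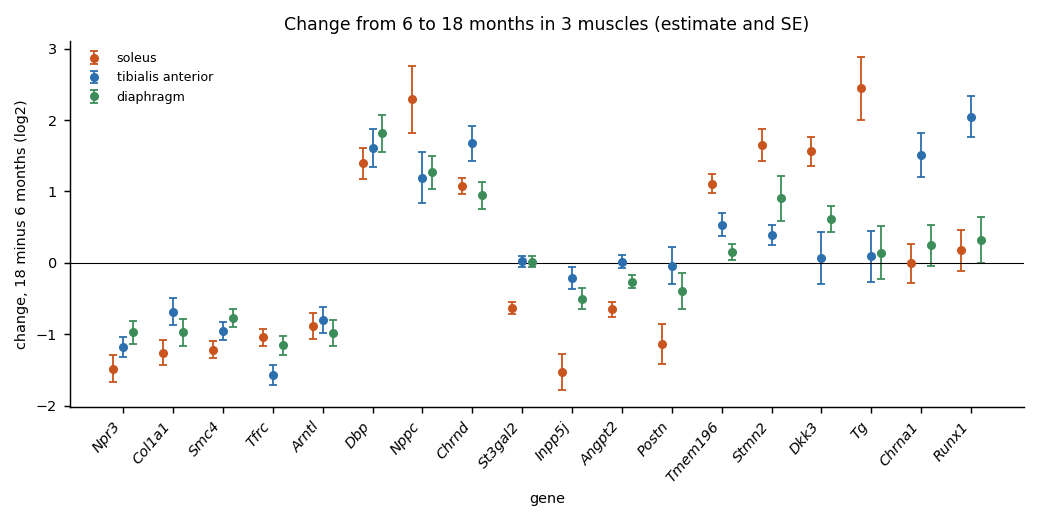
Change from 6 to 18 months (y axis, log2, estimate and SE) of 18 genes (x axis) in the soleus, tibialis anterior and diaphragm, from 1 fit of 3 muscles for the latter and the soleus fit for the former. The first 8 genes lie on the same side of zero in all 3 muscles, St3gal2 and Tg leave zero in the soleus, and Chrna1 and Runx1 do so in the tibialis anterior.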

How the data were processed

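The deposited tables hold raw read counts per gene, 1 for each library. The authors extracted total RNA from muscle kept in RNAlater, removed ribosomal RNA (FastSelect), made stranded libraries (Kapa RNA HyperPrep) and sequenced them paired-end on a NovaSeq, and they quantified genes in ArrayStudio against the rat B6.0 genome with a gene model based on RefSeq. The version of ArrayStudio is not given in the sources used here.

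From these counts, lines of 1 gene symbol were summed (17870 lines to 17315 symbols, with 494 symbols on several lines). Genes were kept by filterByExpr (minimum count 10, minimum total 15) and fitted over all 84 soleus libraries with limma-voom (limma 3.58.1, edgeR 4.0.16, R 4.3.3), TMM scaling and 1 mean per age. The threshold for a call was 1.5-fold together with an adjusted p (Benjamini-Hochberg) under 0.05. Differences between muscles came from a fit of 252 libraries of soleus, tibialis anterior and diaphragm (12658 genes). Levels are log2 CPM with a prior count of 0.5 on the scaled libraries. Library measures were compared by permutation (100000 resamples, scipy 1.17.1). In simulated counts for 18 against 6 months (12124 genes) the fit recovered 87% of 2-fold and 91% of 3-fold changes, with 6 false calls. The simulation gave each gene 1 dispersion at all ages and had no libraries that stand apart. These rates therefore may not hold for the data.

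Groups came from the labels. Because the labels do not tie libraries to animals, p-values measure the spread between samples, which may be partly technical. In the soleus fit this spread was pooled over the libraries of all ages, so an SE also carries that of ages not compared. Cdkn1a (SE 0.33) had an SD of 0.28 at 6 months, 0.21 at 18 months and 1.33 at 24 months. Hdac4, Ncam1 and Runx1 also had a larger SD at 24 months (0.88, 0.64 and 1.05) than at 6 or 18 months. They stayed uncalled in all 39 alternative settings, the fit of only the 24 libraries among them. Members and gene lists were chosen with earlier results of these data known. Named genes were the 12 with the largest change in each direction among called genes with a mean level over 0, the 6 with the smallest p in each direction, up to 4 called per list, those that differed most between muscles (5 per contrast), and genes fixed by name. List members given although not called, and Dusp1, Zfp36 and Ier3, were picked after their values were seen. Results for 1 named gene are not reported here. Alternatives were RLE and total-count scaling, other filters and thresholds, edgeR, DESeq2 (1.42.0), quality weights, only the 24 libraries, a replicate block, symbols on several lines left out, and each library left out in turn. The covariate for the 10 most abundant genes, the fit without 5 libraries and the contrast of the spans were added after the data were seen.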

Additional observations from a re-analysis of the deposited data

Results flagged for a closer look

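The change from 6 to 18 months in the soleus differed from that in the tibialis anterior by an interaction test in 15 of the named genes. The soleus change was higher for Tg by 2.34 on the log2 scale, for Cntn3 by 2.33, for Dkk3 by 1.48, for Hook1 by 1.27, for Stmn2 by 1.25, for Eqtn by 1.18 and for Fxyd6 by 0.88. The differences were negative for Runx1 (−1.89), Chrna1 (−1.53), Inpp5j (−1.33), Hist1h1b (−1.31), Postn (−1.10), Fat3 (−0.83), Angpt2 (−0.68) and St3gal2 (−0.66).

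Against the diaphragm, 11 named genes differed by the same test. The soleus change was higher for Cntn3 by 2.34, for Tg by 2.29, for Eqtn by 1.56, for Tmem196 by 0.95, for Dkk3 by 0.94 and for Cdk6 by 0.70. It was below that of the diaphragm for Nell2 (−1.79), Hist1h1b (−1.60), Slitrk2 (−1.15), Inpp5j (−1.04) and St3gal2 (−0.66).

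The change from 6 to 18 months differed from that from 9 to 21 months by a contrast of the spans in 15 named genes. It was higher for Gsta2 by 3.21, Ciart by 2.17, Cntn3 by 1.92, Klf2 by 1.77, Nr4a1 by 1.42, Actc1 by 1.42, Slc4a1 by 1.37, Dkk3 by 1.18, Fxyd6 by 1.03, Dbp by 1.00, Stmn2 by 0.94 and Ndufb7 by 0.74. It was lower for Rn18s (−5.71), Postn (−1.20) and Smc4 (−0.99). The 9 month libraries that enter this contrast had higher mean levels than those of 6 months for Dbp (5.76 against 5.05), Ciart (2.82 against 1.13) and Nr4a1 (7.38 against 6.37).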

How the results depend on the processing

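The 346 genes called in the soleus, 18 against 6 months, became 131 at a 2-fold threshold, 94 with Bonferroni adjustment, 187 with a mean log2 CPM over 1 and 3174 with no fold threshold, and leaving out single libraries gave 309 (without replicate 8 of 18 months) to 368 (without replicate 2 of 18 months). The 189 genes called in the soleus, 21 against 9 months, became in that order 80, 45, 121 and 1209, and they were 376 with DESeq2, 349 with edgeR and 288 with no low-count filter. The genes called in the soleus, 21 against 9 months, higher, were 292 with DESeq2, 272 with edgeR and 80 in limma-voom. The 279 genes whose change differs, 6 to 18 against 9 to 21 months, became 70 at 2-fold, 39 with Bonferroni adjustment, 2085 with no fold threshold and 162 without the 5 libraries. The 118 genes whose change differs, soleus against tibialis anterior, became 51, 29 and 469 at those thresholds, 283 with edgeR and 227 with quality weights. The 57 genes whose change differs, soleus against diaphragm, became 27, 12 and 213, with 32 at a mean log2 CPM over 1, 342 with no low-count filter and 128 with quality weights. The cause of the moves in edgeR, DESeq2, the weights and the unfiltered fits was not tested. The change of Chrna1, −0.01, turned positive with DESeq2 (0.0175), edgeR (0.0182) and the covariate for the 10 most abundant genes (0.2358), and ran from −0.0464 (without replicate 0 of 18 months) to 0.0328 (without replicate 2) when single libraries were left out; the change of Myh3 became 0.0533 with that covariate. Calls were lost on leaving out 1 library, any of 10 for Col5a2 (−0.58 to −0.57) and for Ndufb7 (0.56 to 0.58), any of 12 for C4b (0.51 to 0.58), of 5 for Cdk6 (0.57 to 0.58), of 3 for C4a (0.55 to 0.58) and of 2 for C6 (0.52 to 0.58), all near the fold threshold, and any of 9 for Klf2 (0.63 to 0.76) and of 4 for Fos (0.88 to 0.92), whose adjusted p lay near 0.05. Replicate 2 of 18 months decided Kif20a (−0.91 without it), replicate 3 of 6 months Nr4a1 (0.73) and replicate 5 of 6 months Oasl (0.60). Tg, Nppc and Cntn3 rest on 104 to 312 counts over the libraries of 6 months. Tg was called in each of 39 alternative settings, and Nppc and Cntn3 lost their call with Bonferroni adjustment only.

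The replicate numbers of the labels were compared between the soleus libraries of 6 and 18 months. Over 12 numbers, the deviations of same-numbered libraries had correlations from −0.14 to 0.44 (median 0.03), and 2 libraries correlated best with their own number. Rats were killed at collection, so libraries of these ages come from different animals. These correlations therefore cannot show whether the numbers mark animals. Whether a number marks the same animal across muscles at the same age was not tested. The replicate block joins same-numbered libraries of all ages, which come from different animals, so it does not pair animals between ages. With the replicate block, there were 369 genes called in the soleus, 18 against 6 months, and 253 genes called in the soleus, 21 against 9 months. The block gave 281 genes whose change differs, 6 to 18 against 9 to 21 months, 144 genes whose change differs, soleus against tibialis anterior, and 67 genes whose change differs, soleus against diaphragm. Under the block, Gsta2 was not called (change of Gsta2, 1.504) and Myh2 was (change of Myh2, −2.18).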
